A study of Mus musculus with 4 samples.

Results

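The genes described here are 45 mouse genes that build and run mitosis: the factors that switch them on, the cyclins and kinases that drive entry, the spindle checkpoint, the anaphase machinery, kinetochores, spindle motors, cytokinesis proteins and chromosome structure. They were chosen by name, as array probes other than controls whose gene name is 1 of the 45, with Cdk1 listed under its older name Cdc2a. All 45 were found among the 27745 gene names of the array, and each was represented by its probe with the highest mean signal. RNA abundance was measured on 4 single-colour oligonucleotide arrays. A pair of arrays held B220+ splenocytes of C57BL/6N mice, B220 being a surface protein by which splenic B cells are selected. The other pair held B-cell lymphoma lines, grown out separately from mice that carry a dopamine receptor 3 transgene. The labels give all 4 samples as C57BL/6N and female. The mice's age, the promoter of the transgene, any treatment and the number of mice behind a splenocyte sample are not given in the sources used here. Each line was measured on 1 array, and nothing in the labels says that the splenocyte samples came from separate mice, so the p-values below reflect the scatter of these samples alone, part of which may be technical. The groups differ at once as lymphoma and normal cells, as cultured lines and cells taken from spleen, and in the mice of origin, and these cannot be told apart.

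Cells enter mitosis when cyclin-bound Cdk1 becomes active. The spindle then attaches chromosomes at their kinetochores, and a checkpoint holds the anaphase-promoting complex (APC/C) in check until all are attached. Most of these genes are transcribed late in the cell cycle and are low in resting cells; resting B cells of the spleen are largely outside the cycle, and established lines divide continuously. In many such genes the promoter holds CCAAT boxes, bound by NF-Y, and a short element named CHR, through which MuvB complexes with B-Myb (Mybl2) and FoxM1 act.

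The arrays were of unequal brightness, with a 75th percentile of the processed signal from 514 in splenocyte sample 2 to 1315 in line 2, and were scaled to it. From 24974 to 27319 probes were well above background, and no spot was saturated. Of the B-cell markers 10 of 10 were well above background on every array, although 7 were lower in the lines and 0 higher. Of the T-cell markers 8 of 8 were above background in both splenocyte samples and 6 of 8 in both lines, where Thy1 and Cd8a were not. By the limma call 3 T-cell markers were lower in the lines and 2 higher, Cd3g (4.36 on the log2 scale) and Cd5 (2.56). The summed scaled signal of that list was 1.64 and 1.35 (log2) in the splenocytes and 3.43 and 3.62 in the lines, where Cd3g (2.35 and 2.62) and Cd5 (2.42 and 2.52) made up nearly all of it. Of 7 tested macrophage, monocyte and neutrophil markers 7 were above background in both splenocyte samples, 5 in line 1 and 3 in line 2, and 5 were called lower in the lines and 1 higher. Lyz2 and S100a8 were not above background in either line, and Itgam and S100a9 were above it in line 1 only. Lyz2, S100a8, Thy1 and Cd8a passed the filter through the splenocytes, so their lower calls were nearly given in advance. Csf1r, Mpo and Adgre1 were above background in both lines. The 1 higher was Adgre1 (4.23 ± 0.18, SE; limma adjusted p = 0.000282), whose signal in the lines, 5.14 and 5.16, made up nearly all of the list's sum there, 5.15 and 5.16 against 3.96 and 3.34 in the splenocytes. The part of these cells in the differences below was not tested.

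The mitotic genes were higher in the lymphoma lines almost without exception. At a limma adjusted p under 0.05 over all 18316 genes tested, 44 of the 45 were higher in the lines, 0 were lower and 1, Smc4, was not called. Over all genes tested 63.2% were called, 30.6% as higher and 32.6% as lower. That split depends on the scaling: 48.4% of the called genes were higher, and 63.2% when arrays were centred on their median, which left the count of 44 as it was. The median difference of the 45 genes, lines minus splenocytes, was 2.32 on the log2 scale, a 5.0-fold higher signal, with quartiles of 1.85 and 3.04, while the median of all genes tested was −0.05, with quartiles of −1.04 and 0.85. Both lines lay above both splenocyte samples in 44 of the 45, as they did in 41.2% of all genes tested, and below both in 0, against 43.8%. At least 2-fold higher signals were found for 41 genes, at least 4-fold for 30 and at least 8-fold for 13. Of all 18316 genes tested, 4043, 1659 and 754 reached these folds. In bulk RNA a higher share of dividing cells and more of each RNA per dividing cell cannot be told apart. The fold changes are compared between genes, and the levels are not, because probes differ in brightness.

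**Figure D1:**
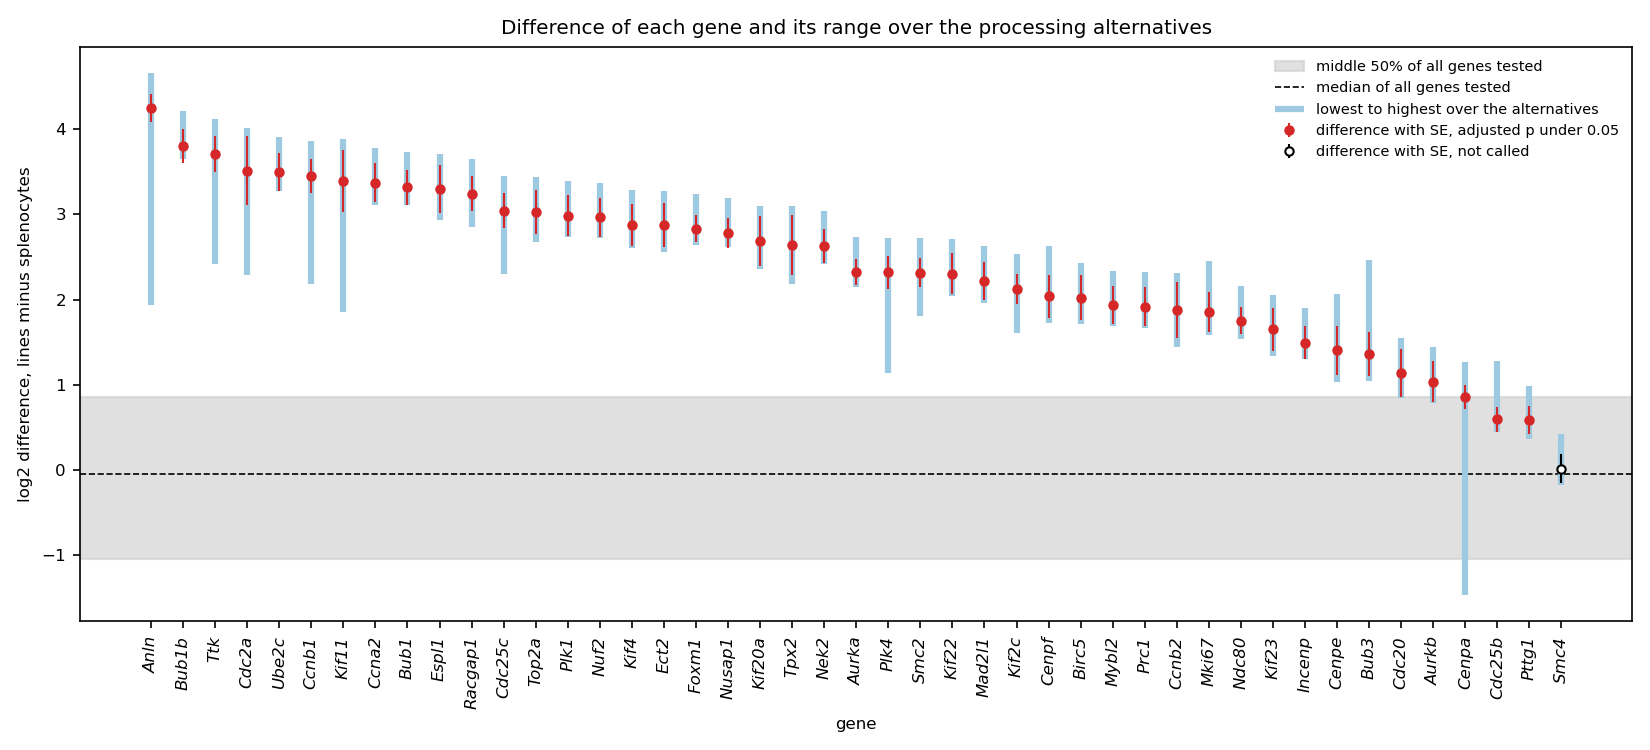
The difference of each of the 45 genes between 2 lymphoma lines and 2 splenocyte samples is plotted on the log2 scale in order of size, as a point with its SE from limma (red where called, open where not), a blue bar from the lowest to the highest value over the processing alternatives, and a grey band between the quartiles of all genes tested. The points run from 4.25 for Anln to 0.01 for Smc4, and only the bars of Cenpa and Smc4 reach below 0.

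The proximal promoters of the genes that rose together were read from RefSeq (build GRCm38.p6), because the promoter elements named above are known from such genes. An entry was found for 37 of the 45. The windows run from 250 bases before to 50 after the table's start site. CCAAT, or its reverse complement ATTGG, was in 27 of 37 (73.0%), against 41.1% of all 27025 genes with an entry. The CHR words TTTGAA or TTCGAA, read on both strands, were in 27 of 37 (73.0%) against 21.7%, and both kinds of word in 24 of 37 (64.9%) against 8.61%. Shown are 7 promoters that hold both words and, last, Pttg1, which holds neither, each from 150 bases before to 20 after the start, 5′ to 3′ on the gene's strand, with the CCAAT and CHR words of either strand in capitals. They are Ccnb2 (chr9:70421535-70421704, minus strand), Cdc2a (named Cdk1 in RefSeq; chr10:69352893-69353062, minus), Ttk (chr9:83834539-83834708, plus), Cdc20 (chr4:118437324-118437493, minus), Kif11 (chr19:37376232-37376401, plus), Racgap1 (chr15:99651637-99651806, minus), Top2a (chr11:99024170-99024339, minus) and Pttg1 (chr11:43425962-43426131, minus).
Ccnb2: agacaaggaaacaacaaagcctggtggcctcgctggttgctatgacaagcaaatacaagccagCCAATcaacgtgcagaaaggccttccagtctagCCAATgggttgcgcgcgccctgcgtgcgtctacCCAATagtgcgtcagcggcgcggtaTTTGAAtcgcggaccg
Cdc2a: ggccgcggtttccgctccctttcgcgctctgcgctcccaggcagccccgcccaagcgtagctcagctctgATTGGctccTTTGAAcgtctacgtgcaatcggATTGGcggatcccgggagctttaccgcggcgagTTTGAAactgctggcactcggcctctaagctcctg
Ttk: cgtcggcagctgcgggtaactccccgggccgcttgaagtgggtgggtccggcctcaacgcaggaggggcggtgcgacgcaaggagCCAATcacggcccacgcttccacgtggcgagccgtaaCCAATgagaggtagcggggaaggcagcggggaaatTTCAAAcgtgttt
Cdc20: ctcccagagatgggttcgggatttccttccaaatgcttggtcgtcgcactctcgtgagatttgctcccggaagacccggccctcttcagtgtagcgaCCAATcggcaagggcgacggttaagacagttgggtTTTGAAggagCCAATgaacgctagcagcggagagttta
Kif11: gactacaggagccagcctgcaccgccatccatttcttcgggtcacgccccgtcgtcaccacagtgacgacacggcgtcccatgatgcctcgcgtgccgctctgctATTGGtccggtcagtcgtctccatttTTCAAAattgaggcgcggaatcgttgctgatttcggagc
Racgap1: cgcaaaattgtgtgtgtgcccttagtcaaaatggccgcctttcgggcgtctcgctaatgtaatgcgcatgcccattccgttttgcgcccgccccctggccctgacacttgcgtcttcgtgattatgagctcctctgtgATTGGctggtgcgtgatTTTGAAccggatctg
Top2a: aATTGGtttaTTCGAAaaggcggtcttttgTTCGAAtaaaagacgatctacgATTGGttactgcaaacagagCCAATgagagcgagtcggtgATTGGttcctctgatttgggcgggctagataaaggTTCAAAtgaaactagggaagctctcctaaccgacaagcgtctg
Pttg1: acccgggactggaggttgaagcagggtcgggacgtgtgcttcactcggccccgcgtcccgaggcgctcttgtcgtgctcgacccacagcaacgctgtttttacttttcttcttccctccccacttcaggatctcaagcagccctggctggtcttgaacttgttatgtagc

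Of 56 CCAAT matches in the members' windows, 43 began within the 150 bases before the start site and 2 after it, with a median first base at −67. Of 38 CHR matches 17 began within the 150 bases before the site and 17 after it, with a median at −16. At least 2 CCAAT words were in 45.9% of the members' promoters against 13.3% of all genes. E2F words (TTTCGCGC, TTTGGCGC or TTTCCCGC, both strands; a few end bases can be shared with a neighbouring CCAAT or CHR word) were in 1 of 37 (2.70%), against 2.12% of all genes. In 34 promoters of DNA replication genes the order was the other way round, with an E2F word in 35.3% and a CHR word in 23.5%. CCAAT was in 58.8% of these, and at least 2 CCAAT words in 32.4%. Among 93 other mitotic genes CCAAT was in 60.2%, a CHR word in 50.5% and an E2F word in 17.2%. An excess of CCAAT over all genes was thus shared by both lists. Within the set, the 24 genes with both words had a median difference of 2.60 and the 13 others one of 2.22. The 7 with neither word (Birc5, Mad2l1, Mybl2, Nuf2, Nusap1, Plk4 and Pttg1) had a median of 2.22, from 0.58 to 2.96. A match is a description of letters, and where none was found these letters are not in this window.

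Both transcription factors were higher in the lines. For Foxm1, the forkhead factor of late cell cycle genes (probe at chr6:128340384-128340443, build mm8, as are all probe positions here), the scaled log2 signal was −1.14 and −1.38 in splenocyte samples 1 and 2 and 1.60 and 1.55 in lines 1 and 2. Its difference was 2.83 ± 0.16 (SE, n = 2 against 2), 7.12-fold (limma adjusted p = 0.000518). Mybl2, the B-Myb subunit that joins MuvB in S phase, gave −0.23 and −0.73 in the splenocytes and 1.53 and 1.38 in the lines, a difference of 1.93 ± 0.22, 3.82-fold (adjusted p = 0.00274). Neither pair of groups overlapped, and the lines lay 0.05 apart for Foxm1 and 0.15 apart for Mybl2.

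Of the cyclins, Cdk1 and the Cdc25 phosphatases, 6 of 6 were higher, with a median difference of 3.21. Cdc2a, the kinase that drives mitotic entry (probe at chr10:68738032-68740441), stood at 0.16 and −0.83 in the splenocytes and 3.43 and 2.93 in the lines. It was 11.4-fold higher in the lines (3.52 ± 0.40, SE; limma adjusted p = 0.00270), the largest difference of this group. Splenocyte sample 1 lay 1.0 above sample 2, and both lines were above both. Its partners were higher too: cyclin B1 (Ccnb1) was 10.9-fold higher (3.45 ± 0.20; adjusted p = 0.000548), cyclin A2 (Ccna2), which acts in S phase and at entry, 10.3-fold (3.37 ± 0.23; adjusted p = 0.000795), and cyclin B2 (Ccnb2) 3.68-fold (1.88 ± 0.33; adjusted p = 0.00914). At the second brightest probe the differences of Cdc2a and Ccnb1 were smaller, 2.29 and 2.19. That probe of Cdc2a was not above background in either splenocyte sample, so 2.29 rests in part on a signal at background.

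The Cdc25 phosphatases remove the inhibitory phosphates of Cdk1. Cdc25c was 8.25-fold higher (3.04 ± 0.21, SE, limma adjusted p = 0.000789), or 2.30 on the log2 scale after normexp background correction. Here and below, that correction includes an offset of 50 added to every signal, which narrows the differences of dim probes. Cdc25b had the smallest difference of the group. Its signal was 3.16 and 3.30 in splenocyte samples 1 and 2 and 3.82 and 3.82 in the lines, so the groups did not overlap, and the 1.51-fold difference (0.59 ± 0.14; limma adjusted p = 0.0229) was close to the threshold. Without splenocyte sample 1 the adjusted p was 0.136, without sample 2 0.0856, without line 1 0.0570 and without line 2 0.0554, and it was 0.0512 with the replicate number as a block and 0.0723 when dim probes were kept (limma, range over all alternatives 0.00363 to 0.136). The mean over its 3 probes was 1.28.

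All 5 mitotic kinases were higher in the lines, by a median of 2.32. Plk1, the Polo-like kinase of entry, centrosomes and cytokinesis (probe at chr7:121960854-121960913), gave 2.21 and 1.72 in the splenocytes and 5.11 and 4.78 in the lines, a 7.90-fold difference (2.98 ± 0.24, SE; limma adjusted p = 0.00116) with no overlap. Nek2, a centrosome kinase, was 6.20-fold higher (2.63), Aurka, the spindle pole Aurora kinase, 5.0-fold (2.32), and Plk4, which starts centriole duplication, 5.0-fold (2.32), each with a limma adjusted p of at most 0.00121. For Plk4 the second brightest probe gave 1.14 and the mean of its probes 1.73.

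Aurkb, the Aurora kinase of the chromosomal passenger complex, had the smallest difference among the kinases. It stood at 0.25 and −0.24 in splenocyte samples 1 and 2 and 1.19 and 0.87 in lines 1 and 2, with both lines higher. The difference was 1.03 ± 0.24 (SE), 2.04-fold (limma adjusted p = 0.0207). It no longer passed without splenocyte sample 2 (0.79; adjusted p = 0.0841), without line 1 (0.87; adjusted p = 0.0789) or with no filter on dim probes (adjusted p = 0.0514; limma, range over alternatives 0.00635 to 0.0841). Its partners in the complex were called. Birc5 (survivin) had 3.97 and 3.34 in the splenocytes and 5.80 and 5.55 in the lines, 4.06-fold higher (2.02 ± 0.27; limma adjusted p = 0.00393). Incenp, the scaffold that activates the kinase, had 4.03 and 3.78 in the splenocytes and 5.56 and 5.23 in the lines, 2.81-fold higher (1.49 ± 0.19; limma adjusted p = 0.00378). In neither gene did the groups overlap.

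**Figure D2:**
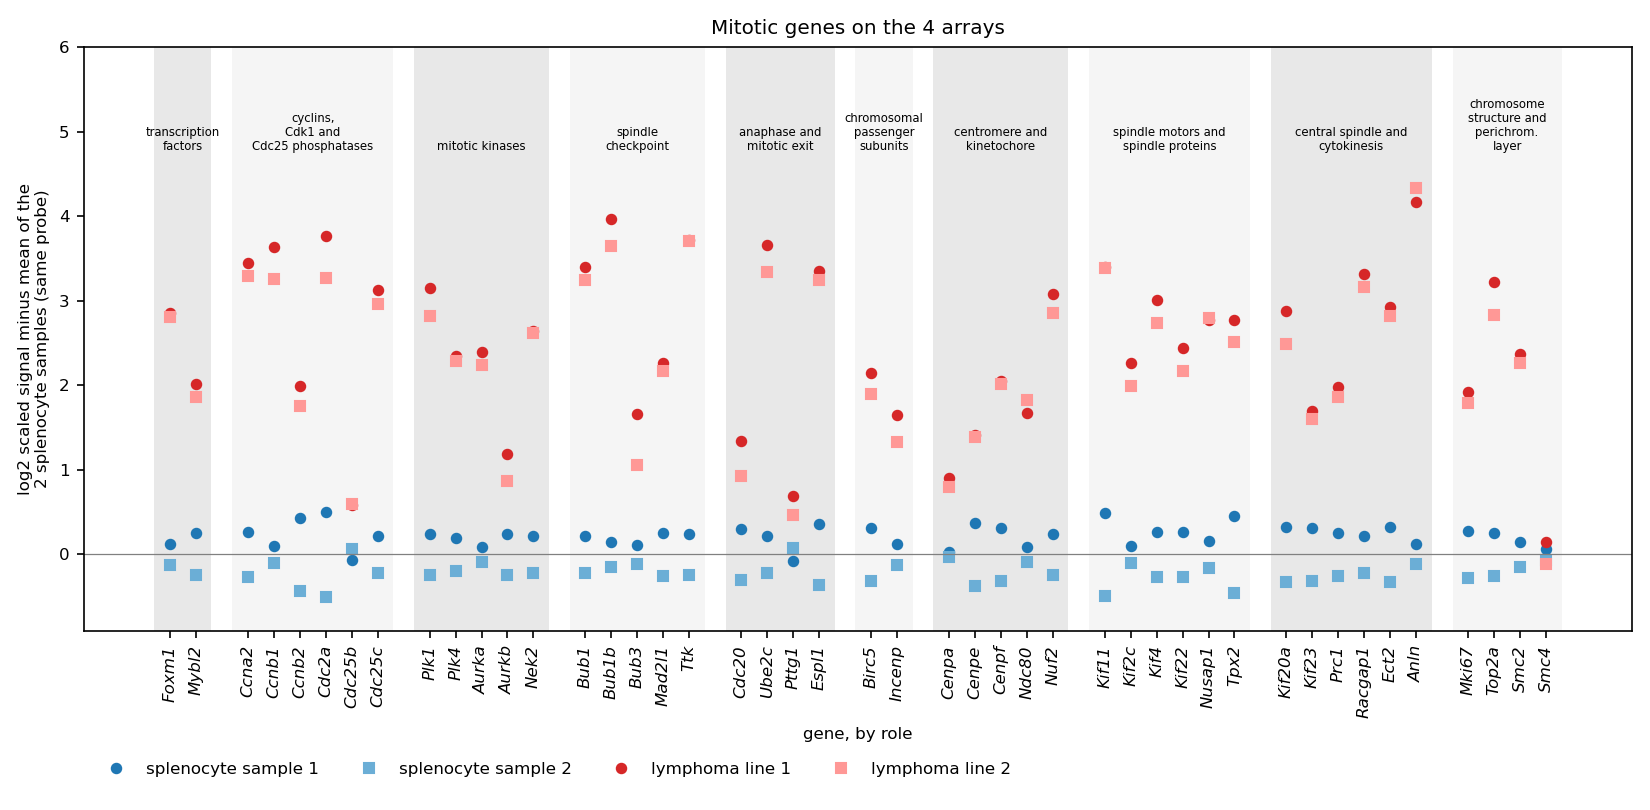
For each of the 45 genes the scaled log2 signal of each of the 4 arrays is plotted minus the mean of the 2 splenocyte samples at the same probe, in groups by role. Both lines lie above both splenocyte samples in 44 genes and overlap them for Smc4.

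The spindle checkpoint genes were higher in 5 of 5 cases, with a median of 3.32. Bub1b (BubR1), a subunit of the complex that inhibits the APC/C (probe at chr2:118332535-118332594), stood at −0.29 and −0.57 in the splenocytes and 3.54 and 3.22 in the lines. This 14.0-fold difference (3.81 ± 0.20, SE; limma adjusted p = 0.000438) was the largest of the checkpoint genes, and its groups lay far apart relative to their spread. Ttk (Mps1), the kinase that starts the checkpoint signal, was 13.1-fold higher (3.71 ± 0.21; limma adjusted p = 0.000541), a value that fell to 2.41 after normexp background correction. Bub1 was 10.0-fold higher (3.32; limma adjusted p = 0.000642), and Mad2l1, whose closed form binds Cdc20, 4.65-fold (2.22; adjusted p = 0.00190).

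Bub3, the adaptor that brings Bub1 and BubR1 to kinetochores, had the smallest difference and probes that disagreed. At its brightest probe (chr7:131359855-131362071) it gave 3.40 and 3.18 in the splenocytes and 4.96 and 4.35 in the lines, 2.57-fold higher (1.36 ± 0.26, SE; limma adjusted p = 0.0113). The lines differed by 0.61, the widest gap between them in the set, and both were above both splenocyte samples. Without splenocyte sample 2 the difference was 1.25 and no longer passed (limma adjusted p = 0.0549, range over alternatives 0.00127 to 0.0549). A second probe for the same transcript gave a difference of 2.46. Another, dimmer probe (chr7:131361338-131361397), designed on a full-length cDNA clone, gave −3.04 and −3.52 in the splenocytes and −3.92 and −3.99 in the lines. It was lower in the lines by 0.68 on the log2 scale (limma adjusted p = 0.0463 over all probes tested). It lies within the 2217 genomic bases between the ends of the brightest probe, so these probes need not read the same bases.

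The 4 genes of anaphase and mitotic exit were all called higher, with a median of 2.22, in a wide range. Ube2c, the ubiquitin-conjugating enzyme of the APC/C (probe at chr2:164463721-164463780), rose from 0.26 and −0.18 in the splenocytes to 3.69 and 3.38 in the lines, 11.3-fold (3.50 ± 0.23, SE; limma adjusted p = 0.000717). Espl1 (separase), the protease that cuts cohesin, was 9.85-fold higher (3.30 ± 0.28; limma adjusted p = 0.00132). Its inhibitor securin, Pttg1, had the smallest called difference of all 45 genes. Pttg1 stood at 4.26 and 4.40 in the splenocytes and 5.03 and 4.80 in the lines, 1.50-fold higher (0.58 ± 0.16; limma adjusted p = 0.0351), with no overlap. This call was lost without splenocyte sample 1 (adjusted p = 0.169), sample 2 (0.106) or line 1 (0.0948), and under quantile normalization (0.0683), a percentile over bright probes (0.0633), no filter (0.0936) and the replicate block (0.0713; limma, range 0.0116 to 0.169). Cdc20, the APC/C activator that the checkpoint targets, gave 3.24 and 2.65 in the splenocytes and 4.29 and 3.88 in the lines, without overlap, 2.20-fold higher (1.14 ± 0.28; limma adjusted p = 0.0241). Its call was lost without splenocyte sample 2 (0.84; adjusted p = 0.0864), without line 1 (0.93; 0.0915) and with no filter (0.0559; limma, range 0.00710 to 0.0915).

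Of the centromere and kinetochore genes 5 of 5 were higher, with the lowest median of the role groups, 1.75. Nuf2, a subunit of the Ndc80 complex that grips microtubules (probe at chr1:171335192-171335251), stood at 0.76 and 0.26 in the splenocytes and 3.59 and 3.36 in the lines, 7.81-fold higher (2.96 ± 0.23, SE; limma adjusted p = 0.00105). Its partner Ndc80 was 3.37-fold higher (1.75; limma adjusted p = 0.00150), and Cenpf, a large outer kinetochore protein, 4.10-fold (2.04; adjusted p = 0.00332), or 2.63 at its second probe. Cenpe, the kinetochore motor, was 2.64-fold higher (1.40; limma adjusted p = 0.0141), with 2.07 at its second probe and 1.14 at another, dimmer probe that was not called (limma adjusted p = 0.0527 over all probes tested). The Cenpe call was lost without line 1 (adjusted p = 0.0590) and without line 2 (0.0549; limma, range over alternatives 0.00344 to 0.0590).

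Cenpa, the histone H3 variant that marks centromeres, had the smallest difference of the kinetochore genes. Its brightest probe (chr5:30950937-30950996) gave 1.29 and 1.23 in the splenocytes and 2.17 and 2.06 in the lines, 1.81-fold higher (0.85 ± 0.14, SE; limma adjusted p = 0.00742), with no overlap. Without splenocyte sample 2 the adjusted p was 0.0550. The second probe (chr5:30945787-30945846), designed on a cDNA clone, went the other way. It gave −5.51 and −5.85 in the splenocytes and −7.13 and −7.18 in the lines, where it was not well above background, a difference of −1.47 (limma adjusted p = 0.00350 in the fit with second probes, range over alternatives 0.00112 to 0.150). That probe passed the filter through the splenocytes, so its lower direction was nearly given in advance. The mean over both probes was −0.31 (limma adjusted p = 0.150). The direction given for Cenpa is therefore that of its brightest probe.

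All 6 spindle motors and spindle proteins were higher, with a median of 2.71 and a range from 2.12 to 3.39. Kif11 (Eg5), the motor that pushes spindle poles apart (probe at chr19:37486409-37486468), gave −1.77 and −2.76 in the splenocytes and 1.13 and 1.12 in the lines, 10.5-fold higher (3.39 ± 0.36, SE; limma adjusted p = 0.00225). The lines were 0.01 apart and the splenocyte samples 0.99, and the groups did not overlap. Its 2 other probes were not above background in the splenocytes and gave smaller differences, 1.85 at the second brightest, while the mean over all 3 probes was 2.17. The chromokinesin Kif4 was 7.35-fold higher (2.88), Nusap1, which bundles spindle microtubules, 6.89-fold (2.78), Tpx2, the activator of Aurora A, 6.25-fold (2.64), and Kif22, a second chromokinesin, 4.93-fold (2.30), with limma adjusted p-values of at most 0.00400. Kif2c (MCAK), which takes microtubules apart at centromeres, had the smallest difference, from −2.75 and −2.96 in the splenocytes to −0.59 and −0.87 in the lines, 4.36-fold (2.12 ± 0.18; limma adjusted p = 0.00128).

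The central spindle and cytokinesis genes were higher in 6 of 6 cases, by a median of 2.78. Anln (anillin), which organises the contractile ring (probe at chr9:22084524-22088340), had the largest difference of the whole set, with −5.54 and −5.77 in the splenocytes and −1.48 and −1.32 in the lines. Among the splenocytes it was well above background in 1 of 2 samples, not in sample 2, so the fitted 19.1-fold difference (4.25 ± 0.17, SE; limma adjusted p = 0.000248) rests in part on a signal at background. After normexp background correction it was 1.93 and at the second probe, not above background in either splenocyte sample, 2.20; the direction stayed. Racgap1 and Kif23 together form centralspindlin. Racgap1 was 9.48-fold higher (3.24 ± 0.21; limma adjusted p = 0.000686). Kif23, the smallest difference of these genes, went from −0.12 and −0.75 in the splenocytes to 1.26 and 1.16 in the lines, 3.14-fold (1.65 ± 0.26; limma adjusted p = 0.00622), and its groups did not overlap. Ect2, the exchange factor that activates RhoA at the cell middle, was 7.33-fold higher (2.87), Kif20a, a central spindle motor, 6.44-fold (2.69), and Prc1, which bundles midzone microtubules, 3.78-fold (1.92), with limma adjusted p-values of at most 0.00284.

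Of the 4 genes of chromosome structure and the perichromosomal layer 3 were higher. Top2a, the topoisomerase that untangles sister chromatids (probe at chr11:98812020-98812834), gave −0.12 and −0.62 in the splenocytes and 2.86 and 2.46 in the lines, 8.16-fold higher (3.03 ± 0.26, SE; limma adjusted p = 0.00128). Mki67, the antigen Ki-67 that coats mitotic chromosomes and serves as a marker of proliferation, was 3.61-fold higher (1.85 ± 0.23; limma adjusted p = 0.00349), or 2.45 at its second probe. Of the condensin ATPase pair, Smc2 was called and Smc4 was not. Smc2 stood at −0.66 and −0.95 in the splenocytes and 1.56 and 1.45 in the lines, 4.98-fold higher (2.32 ± 0.17; limma adjusted p = 0.000965). Smc4 (probe at chr3:69122460-69122519) stood at 5.0 and 4.87 in the splenocytes and 5.08 and 4.82 in the lines, so that line 2 was the lowest of the 4 arrays and line 1 the highest. Its difference was 0.01 ± 0.17 (limma adjusted p = 0.950), with a 95% interval of −0.44 to 0.47, and a second, dimmer probe gave 0.07. The sign of this small value changed with the scaling, to −0.18 under quantile normalization and −0.11 with the percentile over bright probes. It also turned without splenocyte sample 2 (−0.05) and without line 1 (−0.12).

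Several probes were tested for 22 of the 45 genes. In 20 of these all probes had the same direction and in 18 all were called higher; the median spread between the probes of a gene was 0.60 on the log2 scale. Of 75 tested probes of the set 70 were called higher and 2 lower, the Bub3 and Cenpa probes described above. Over all genes tested, at 1 probe each, 30.6% were called higher and 32.6% lower. The second probes of Anln and Cdc2a, both dimmer probes of Kif11 and the dimmest of Top2a were above background in the lines only. They passed the filter through the lines, so their higher direction was nearly given in advance and adds little to these counts. The lower Cenpa probe was above background in the splenocytes only, so its direction was likewise nearly given in advance.

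**Figure D3:**
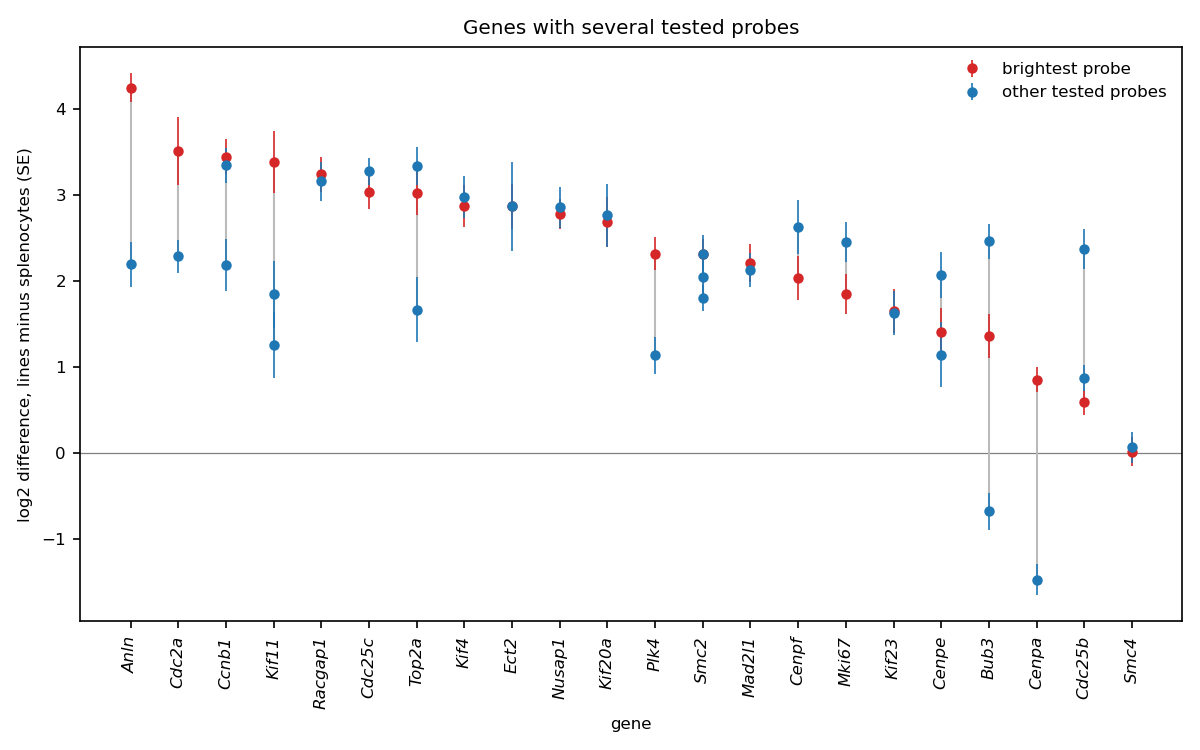
Differences between lines and splenocytes on the log2 scale are shown for every tested probe of the genes with several tested probes, with SE bars, the brightest probe of each gene in red and the others in blue. The probes lie above 0 except for 1 of Bub3 (−0.68) and 1 of Cenpa (−1.47).

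Within the groups the set also had a common direction. Splenocyte sample 1 was above sample 2 in 43 of the 45 genes, by a median of 0.49, while over all genes tested 48.8% were higher in sample 1 and the median was −0.01. The widest gap was that of Cdc2a, 1.0, followed by Kif11, 0.99, and the exceptions were Pttg1 (−0.15) and Cdc25b (−0.14), which had the smallest called differences between the groups. The median SD of these genes between the splenocyte samples was 0.34, against 0.12 for all genes tested. Between the lines it was 0.11, against 0.16. Line 1 was above line 2 in 41 of 45, against 50.1% of all genes tested, by a median of 0.15 against 0.00. No gene of the set differed between the lines by more than 1. There is no test between single arrays. Beside this gap, the array of splenocyte sample 1 was the brighter one (75th percentile 1078 against 514). Germinal centre markers were higher in sample 1 for 4 of 5 genes (median 1.05) and macrophage, monocyte and neutrophil markers for 6 of 7 (0.39), while B-cell markers were higher in sample 1 for 1 of 10 (−0.32), and the part of these in the gap was not tested.

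**Figure D4:**
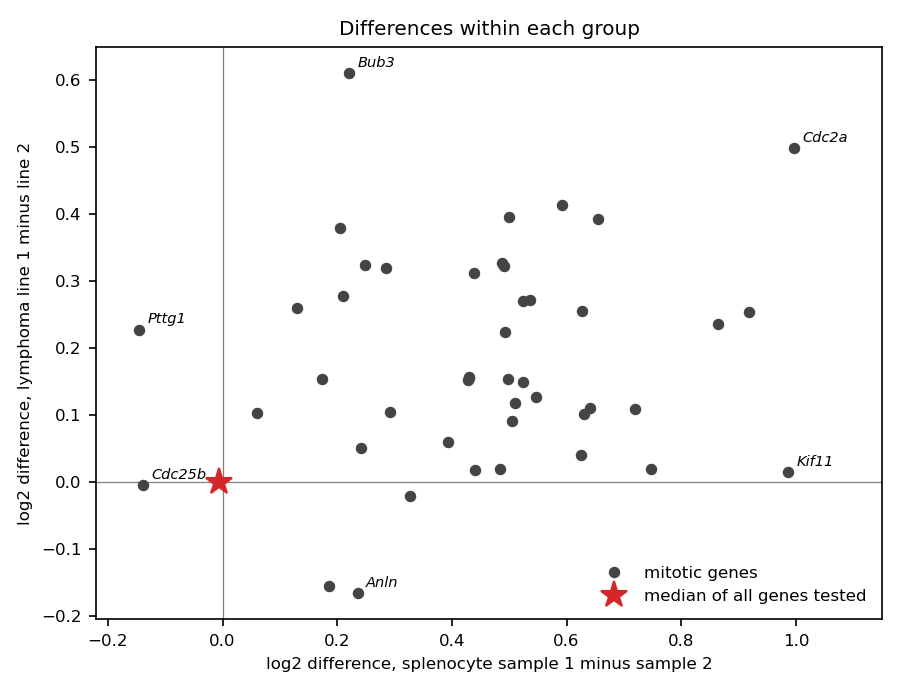
For each of the 45 genes the difference between splenocyte samples 1 and 2 is plotted on the horizontal axis and that between lines 1 and 2 on the vertical axis, both on the log2 scale, and a red star marks the median of all genes tested. The points reach 1.0 along the splenocyte axis (Cdc2a) and 0.61 along the line axis (Bub3), and 43 of 45 lie to the right of 0.

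Beyond the 45 genes, a wider list of mitotic genes also held more increases than decreases. Of 110 other mitotic genes, all tested, 79 (71.8%) were called higher and 9 (8.18%) lower, with a median difference of 1.46. By class, 23 of 31 other centromere and kinetochore genes were higher (2 lower, median 1.98), 21 of 25 other spindle, centrosome and cytokinesis genes (1 lower, 2.02), 17 of 22 genes of entry control and MuvB (2 lower, 1.90), 10 of 18 of condensin and cohesin (3 lower, 1.08) and 8 of 14 of the APC/C (1 lower, 0.75). The largest increases were those of Ncaph, the kleisin of condensin I (20.9-fold; 4.38 ± 0.28, SE; limma adjusted p = 0.000675), the mitotic kinase Pbk (18.9-fold; 4.24 ± 0.34; adjusted p = 0.00112) and the centromere protein Cenpm (14.6-fold; 3.87 ± 0.20; adjusted p = 0.000406), the last 3.27 after normexp correction.

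The condensin subunits other than Smc4, picked out after their values were seen because Smc4 was not called, were all called higher at their brightest probes. Besides Ncaph, Ncapg2 was 4.63-fold higher (2.21), Ncapg 3.39-fold (1.76), Ncapd2 2.94-fold (1.56) and Ncapd3 2.69-fold (1.43), each with a limma adjusted p of at most 0.00321. The second probes of Ncapg and Ncapd2 gave 2.69 and 2.23. Ncaph2 was 1.71-fold higher (0.78; limma adjusted p = 0.0355), a call that was lost under 6 alternatives, among them leaving out splenocyte sample 1, splenocyte sample 2 or line 1 (adjusted p = 0.143, 0.0926 and 0.0774; range 0.00719 to 0.143).

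The 9 other mitotic genes called lower came from several complexes. Cenpb, which binds centromeric satellite DNA, fell most, from 0.29 and 0.37 in the splenocytes to −2.25 and −2.54 in the lines, by 6.62-fold (−2.73 ± 0.17, SE; limma adjusted p = 0.000661), and kept its call under every alternative. The cohesin regulator Pds5a (named 9030416H16Rik on the array) was 2.89-fold lower (−1.53), but its second probe gave 0.21. The spindle pole protein Numa1 was 2.69-fold lower (−1.43) and the kinetochore gene Cenpo 2.30-fold (−1.20), and their second probes gave −0.32 and −0.42, neither called. Nipbl, which loads cohesin, was 1.79-fold lower (−0.84), or −3.11 at its second probe. The MuvB subunit Lin52 was 1.87-fold lower (−0.91), the pocket protein p130 (Rbl2), which binds MuvB in resting cells, 1.73-fold (−0.79), the cohesin subunit Stag2 1.69-fold (−0.76) and the APC/C subunit Anapc4 1.40-fold (−0.49; 0.084 at its second probe). These last 4, and Nipbl, lost their calls when arrays were centred on the median. Without splenocyte sample 2, 4 of the other mitotic genes were called lower; Lin52, Nipbl, Rbl2, Stag2 and Anapc4 did not pass (limma adjusted p = 0.0598, 0.0598, 0.165, 0.0706 and 0.183, with highest values over alternatives of 0.0820, 0.0804, 0.181, 0.157 and 0.700). Without splenocyte sample 1, Rbl2, Stag2 and Anapc4 did not pass (0.0723, 0.0630 and 0.139). Without line 1, Rbl2 and Anapc4 did not (0.106 and 0.0842), and without line 2 Anapc4 (0.0642). Anapc4 also lost its call with the replicate block (0.0769), after normexp correction (0.0705), with no filter (0.107) and as a mean over its probes (0.269), and Rbl2 with no filter (0.0881).

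DNA replication genes, which act in S phase before mitosis, moved in the same direction. Of 43 genes tested 40 (93.0%) were called higher, 0 lower and 3 not called, with a median difference of 1.77. The largest increase was that of Cdc45l, a subunit of the replicative helicase (10.8-fold, 3.43 ± 0.28, SE, limma adjusted p = 0.00119). Next came the loader Cdc6 (8.95-fold, 3.16 ± 0.25, limma adjusted p = 0.00109) and Mcm10 (8.65-fold, 3.11 ± 0.32, limma adjusted p = 0.00203). The second probe of Cdc6 gave 3.92. Not called were the licensing factor Cdt1 (−0.37; limma adjusted p = 0.120), Rpa1 (0.12; adjusted p = 0.583) and Pold1 (0.18; adjusted p = 0.459). Whether the difference of the 45 genes differs from that of the other lists was not tested.

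**Figure D5:**
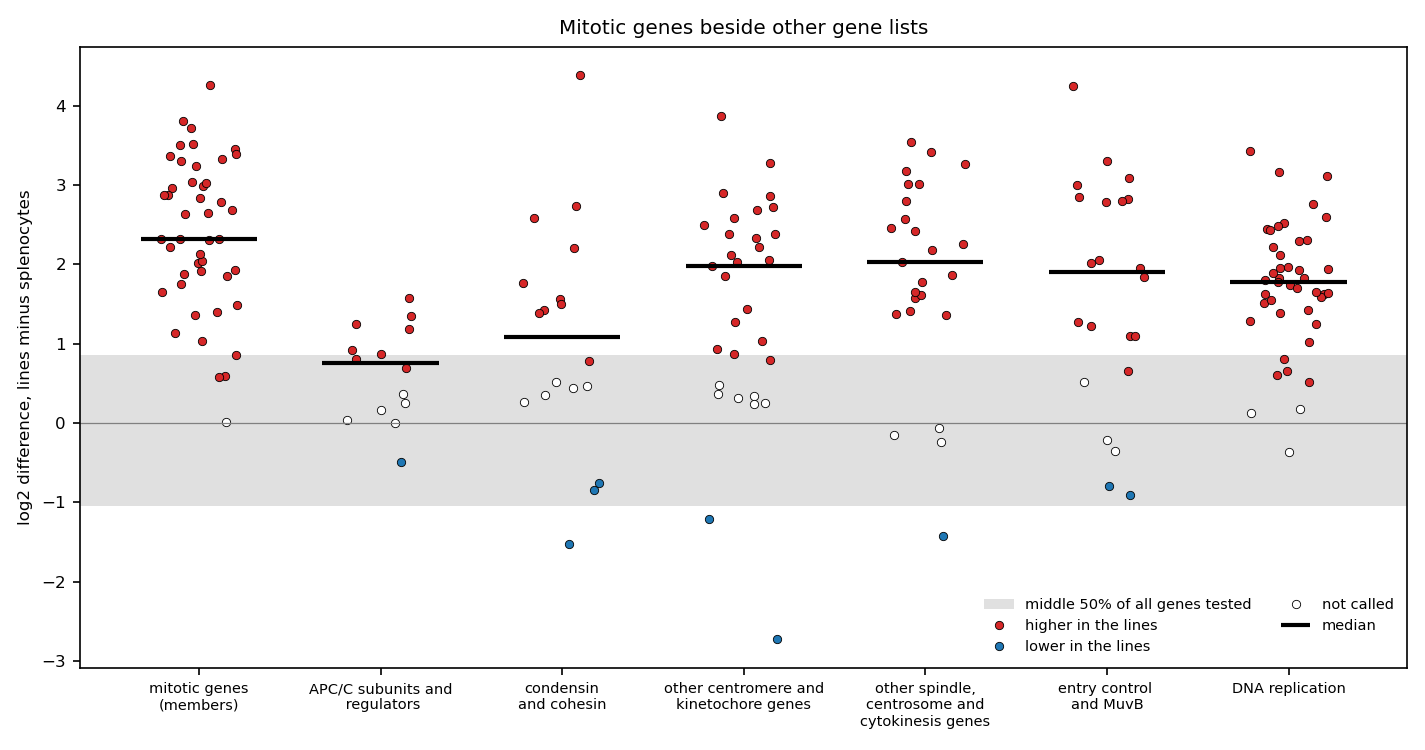
The log2 differences between lines and splenocytes of the 45 mitotic genes are set beside those of 5 classes of other mitotic genes and of DNA replication genes, each point a gene, with a bar at the median and a band between the quartiles of all genes tested. The medians run from 0.75 for the APC/C to 2.32 for the 45 genes.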

How the data were processed

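RNA of 4 samples was read on Agilent single-colour arrays, labelled with Cy3. Agilent Feature Extraction was version 9.5 per the submitters' processing notes and 9.5.1.1 per the file headers, and the array annotation is on build mm8. The deposited processed signal is an intensity that, per the file headers, was corrected for background and spatial trends within the array, with no scaling between arrays. The other columns used are deposited raw intensity values and flags of 0 or 1. The authors' matrix holds the processed intensity times 1 factor per array, as its values show, with that scaling unstated.

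Main values are the log2 processed intensity minus the log2 75th percentile of the array over spots other than controls. A spot that any array marked as an outlier, by its pixels or within its probe's population, was dropped everywhere, and the rest of a probe's spots were averaged, which lost 153 of 41174 probes. Testing required 2 of the 4 arrays to be well above background and left 27404 probes. The brightest tested probe stood for a gene, which gave 18316 genes. The lines were tested against the splenocytes in limma 3.58.1 (lmFit, eBayes; prior SD 0.185, 2.32 prior and 2 residual degrees of freedom) in R 4.3.3 with version 1.17.8 of its data.table package, two-sided, with Benjamini-Hochberg adjustment over all genes and a threshold of 0.05. The script was tested on simulated data. Arrays carry no counts, so their number limits the precision.

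Deviations from the group mean did not go together between samples of the same replicate number (correlation 0.0136 across genes, 2 pairs), and the numbers were taken not to pair the samples. The members and the other gene lists were chosen with earlier results of these data known. Members were given in full where they had the largest or smallest difference of their role group, were not called, or had probes that disagreed. Of the other lists, genes called lower and the 3 largest increases were named. All of the 110 other mitotic genes were on the array, 11 of them matched by an older name or a RefSeq accession, and all 43 replication genes, 1 by an older name. NK-cell, erythroid and plasma-cell marker lists were also read: 2 of 4 tested NK-cell markers, 4 of 5 erythroid markers and 4 of 4 plasma-cell markers were above background in both lines. By the limma call 1 NK-cell marker was higher in the lines and 3 lower, and 1 erythroid marker was higher and 2 lower. Of the plasma-cell markers 3 were higher and 0 lower, and of 5 germinal centre markers 1 was higher and 3 lower. Klrd1, Gzma, Alas2 and Mybl1 passed the filter through the splenocytes, so their lower calls were nearly given in advance. Of the 45 members 37 matched a RefSeq promoter by symbol or older name, 34 of them with 1 promoter.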

Additional observations from a re-analysis of the deposited data

How the results depend on the processing

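Of 16 alternatives to the processing, 690 values of the 45 genes kept their direction and their side of the threshold, 23 lost the call and 6 turned in sign, and these came from 8 genes: Pttg1, Cdc25b, Aurkb, Cdc20, Cenpe, Bub3, Cenpa and Smc4. The genes called higher, 44 in the main setting, numbered 43 under quantile normalization, with the percentile over bright probes, with the filter on all arrays (Anln then untested), with the mean over probes and with the second brightest probe, 40 with no filter on dim probes, and 38 to 42 with 1 sample left out. With the second brightest probe 1 was called lower, Cenpa, at −1.47; the mean over its probes was −0.31. Smc4 was −0.18 under quantile normalization, −0.11 with the percentile over bright probes and −0.12 to 0.14 with 1 sample left out. Centring arrays on the median raised the median of all genes by 0.41 and gave medians of 2.73 for the 45 genes, 1.87 for the other mitotic genes and 2.18 for the replication genes, with 4 other mitotic genes called lower; quantile normalization moved the median of all genes by 0.14, the percentile over bright probes by −0.13 and normexp by −0.26. The distance of the 45 genes' median from that of all genes stayed between 2.22 and 2.71. Quantile normalization gave 1 replication gene called lower. Other mitotic genes called lower numbered 4 to 8 with 1 sample left out, the lowest without splenocyte sample 2. With the second probe Pds5a (9030416H16Rik) was 0.21 and Anapc4 was 0.084. Dim probes limit the size of differences. Normexp also added an offset of 50 to every signal. Anln, with processed signals of 23.2 and 9.40 in splenocyte samples 1 and 2, gave 1.93 under it.

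With the replicate number as a block 42 of the 45 genes were called higher, Pttg1 and Cdc25b no longer passing. Of the other mitotic genes 78 were then called higher and 8 lower, Ncaph2 and Anapc4 no longer passing, and of the replication genes 38 were called higher. A block for slide or scan was not run, because all 4 arrays lie on 1 slide and were read in 1 scan.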
